A study of Mus musculus with 21 samples.

Results

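The genes described here make GABA, the main inhibitory transmitter, or load GABA or monoamines into synaptic vesicles. They are Gad1, Gad2, Slc32a1 and Slc18a2, 4 of 13850 genes tested, and were read by 9 of 45101 probe sets, those annotated to 1 of these genes alone. The 21 Affymetrix arrays, 1 for each sample, carried RNA of the rostral part of the cerebral cortex, taken from mouse embryos on embryonic day 14. A set of 3 lines with different mutations of Pax6, a paired domain and homeodomain transcription factor of cortical radial glia, were each set against wild-type littermates. Sey (Small-eye) mutants (4 arrays) and their littermates (3 arrays) were C57BL/6J x DBA/2J (B6D2F1) hybrids. Leca4 mutants (3 arrays) and their littermates (4 arrays), and Leca2 mutants (4 arrays) and their littermates (3 arrays), were of strain 129 S6. Zygosity is not given in the labels. From general knowledge of the alleles, Sey truncates the protein, and the Leca4 and Leca2 mutations lie in the PAI and the RED subdomain of the paired domain. No treatment was applied to any group.

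GABA is made from glutamate by glutamate decarboxylase, of which Gad1 and Gad2 encode the forms also called GAD67 and GAD65. The vesicular inhibitory amino acid transporter Slc32a1 (VGAT) then fills vesicles with GABA or glycine. The vesicular monoamine transporter Slc18a2 (VMAT2) does the same with dopamine, noradrenaline, serotonin and histamine. In the embryonic forebrain GABAergic neurons arise from ventral progenitors of the ganglionic eminences, where Dlx homeobox factors act, and some of them migrate into the cortex, whose own progenitors give rise to glutamatergic neurons.

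Gad2 (position 22621015 to 22693877), Gad1 (70561303 to 70602014) and Slc32a1 (158607260 to 158615747) lie on chromosome 2 of GRCm38.p6, the chromosome of Pax6, at 83.05, 35.11 and 52.94 Mb from it. Slc18a2 lies on chromosome 19 (59260878 to 59296012). The sequences from 250 bases before to 50 bases after a start of each gene (the start that RefSeq's promoter table uses, on GRCm38.p6) were searched on both strands for the homeodomain core ATTA, its longer palindrome TAATTA, and TGACGTCA, a cyclic AMP response element that was added to the search after the sequences had been read. ATTA stood in the windows of Gad1 (2 matches) and Slc18a2 (1 match), and TGACGTCA in that of Slc18a2 (1 match). The windows of Gad2 and Slc32a1 held none of these motifs, and TAATTA was in none of the 4. Of 32851 mouse promoter windows of 300 bases, 58% held ATTA, 5.29% TAATTA and 1.79% TGACGTCA. The 2 windows with a match are shown because they hold the matches, in genes that rose in the Sey cortex. Both are on the plus strand, at chr2:70561879-70562178 for Gad1 and chr19:59260628-59260927 for Slc18a2, and capitals mark the matches (TAAT is ATTA on the other strand).
Gad1: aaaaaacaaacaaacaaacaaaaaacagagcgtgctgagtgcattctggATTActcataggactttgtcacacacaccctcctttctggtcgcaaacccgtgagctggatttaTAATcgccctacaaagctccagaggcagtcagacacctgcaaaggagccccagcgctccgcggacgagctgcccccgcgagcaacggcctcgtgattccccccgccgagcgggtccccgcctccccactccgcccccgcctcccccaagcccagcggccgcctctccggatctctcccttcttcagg
Slc18a2: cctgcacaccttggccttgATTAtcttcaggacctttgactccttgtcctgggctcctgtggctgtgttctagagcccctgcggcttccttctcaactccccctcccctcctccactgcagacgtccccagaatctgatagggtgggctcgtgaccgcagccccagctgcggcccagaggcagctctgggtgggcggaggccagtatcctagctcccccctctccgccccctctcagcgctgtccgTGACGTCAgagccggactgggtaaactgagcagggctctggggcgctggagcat

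The median of an array was 6.03 to 6.26 (log2), and the correlation of arrays within a group was 0.9931 to 0.9972 over probe sets. The labels give no sex. Xist against the Y-linked Eif2s3y and Kdm5d put 3 of 4 Sey mutants, against 0 of 3 Sey controls, as female. The same reading gave 1 of 3 females in Leca4 mutants and 1 of 4 in their controls, and 2 of 4 in Leca2 mutants and 3 of 3 in their controls. The index transcript Pax6 was higher in mutants than in littermates of each line, with log2 changes of 0.56, 0.49 and 0.93 in Sey, Leca4 and Leca2 (adjusted p = 0.000184, 0.00276 and 1.1e-05 in limma), and a transcript level does not show whether an allele is mutant. The words called, rose and fell are used of a gene with an adjusted p under 0.05 in limma, over 13850 genes. A probe set level was called dim at or below the 40th percentile of its array, a value between 5.37 and 5.60 over the arrays.

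In the Sey cortex all 4 genes rose, and in the Leca4 and Leca2 cortex none of them was called. The rises were 4.07-fold for Gad1, 3.36-fold for Gad2 and 3.49-fold for Slc32a1 (by 1 of its 4 probe sets), and at least 5.78-fold for Slc18a2. Slc18a2 was kept for testing only through the Sey mutants, where it is high, so its call is not an independent test. In Sey, 10.7% of all genes tested were called higher and 9.41% lower (20.2% in all), and the median log2 change of the 4 genes was 1.91, also with Slc18a2 at its lower bound, against -0.0003 over all genes. In Leca4 3.39% of all genes were called higher and 2.24% lower (5.62% in all), and in Leca2 0.173% higher and 0.303% lower (0.477% in all). The median of the 4 genes was -0.34 in Leca4, against 0.006 over all genes, and 0.10 in Leca2, against 0.0052. Both medians include fitted values of Slc18a2, dim in all Leca arrays but 1, which are not measured sizes. By the probe set that stands for each gene, the changes of Gad1, Gad2 and Slc32a1 ran from -0.47 to -0.15 in Leca4 and from -0.11 to 0.17 in Leca2. In bulk tissue a higher level from more cells of a type cannot be told apart from more RNA per cell, and this holds for each result below.

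**Figure D1:**
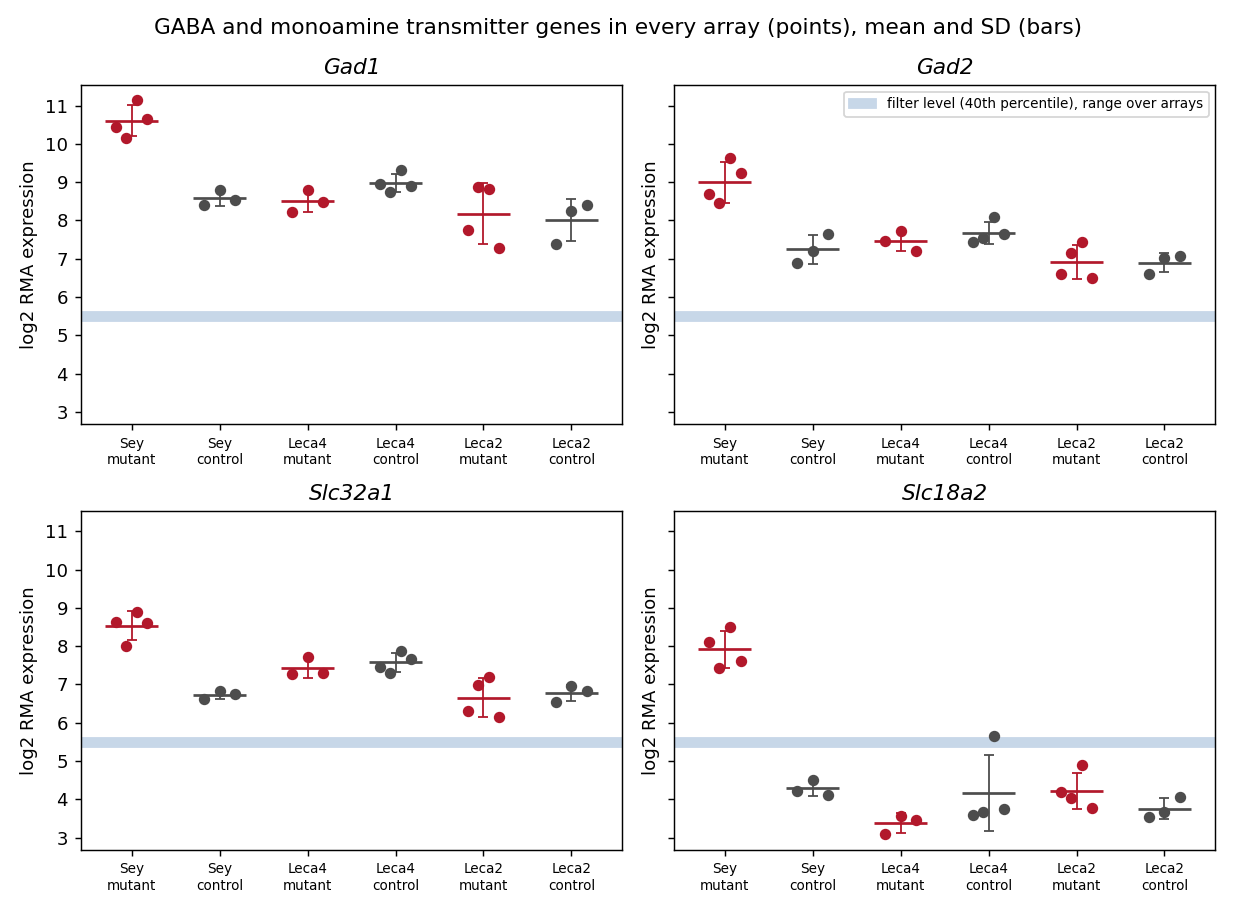
Log2 RMA expression (vertical axis) of Gad1, Gad2, Slc32a1 and Slc18a2 in each of the 21 arrays (points), with the mean (long bar) and SD (error bar) of each of the 6 groups, mutants in red and controls in grey, and the range of the filter level shaded. The 4 Sey mutant arrays lie above all Sey control arrays for every gene, and for Slc18a2 the control arrays lie below the filter level.

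Gad1, the decarboxylase form found throughout the neuron, had log2 values of 10.45, 10.16, 11.14 and 10.66 in Sey mutants, against 8.41, 8.80 and 8.53 in Sey controls. Each mutant array was above each control array, as was so for 16.5% of all genes in this line. The log2 change was 2.02 ± 0.33 (SE of the fit; adjusted p = 0.000168 in limma), and 22 of 13850 genes had a larger rise. In Leca4 the values were 8.22, 8.79 and 8.49 in mutants, against 8.95, 8.74, 9.31 and 8.91 in controls, so that the groups overlapped. The log2 change was -0.47, with a 95% interval from -1.16 to 0.22 (adjusted p = 0.501 in limma). In Leca2 the values were 7.75, 8.87, 8.81 and 7.28 in mutants, against 7.38, 8.26 and 8.40 in controls. A pair of Leca2 mutants was above all controls of the line and another was below them, and the change of 0.17 had an interval from -0.52 to 0.86 (adjusted p = 1 in limma).

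Gad2, the form enriched at nerve terminals, had log2 values of 8.68, 8.45, 9.63 and 9.25 in Sey mutants, against 6.90, 7.20 and 7.65 in Sey controls. Each mutant array was above each control array, as for 16.5% of all genes in this line, and the log2 change was 1.75 ± 0.27 (adjusted p = 9.5e-05 in limma). In Leca4 the values were 7.47, 7.71 and 7.21 in mutants, against 7.43, 7.54, 8.09 and 7.65 in controls. In Leca2 they were 6.61, 7.16, 7.43 and 6.49 in mutants, against 6.61, 7.02 and 7.07 in controls. Both of these pairs of groups overlapped, with log2 changes of -0.21 (interval -0.77 to 0.35; adjusted p = 0.76 in limma) in Leca4 and 0.02 (-0.54 to 0.59; adjusted p = 1) in Leca2.

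Slc32a1, which loads GABA into vesicles, had log2 values of 8.63, 8.00, 8.89 and 8.61 in Sey mutants, against 6.62, 6.83 and 6.75 in Sey controls. The lowest mutant array was more than 1 log2 unit above the highest control array, where 16.5% of all genes had each mutant array above each control array. The log2 change was 1.80 ± 0.23 (adjusted p = 1.22e-05 in limma). Other probe sets of the gene that were kept for testing changed by 0.07 and -0.02 in Sey and were not called. In Leca4 the values were 7.26, 7.73 and 7.30 in mutants, against 7.46, 7.30, 7.88 and 7.68 in controls. In Leca2 they were 6.31, 6.98, 7.19 and 6.15 in mutants, against 6.54, 6.96 and 6.83 in controls. The groups overlapped in both lines, with changes of -0.15 (interval -0.63 to 0.33; adjusted p = 0.805 in limma) and -0.11 (-0.59 to 0.37; adjusted p = 1).

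Slc18a2, the vesicular monoamine transporter, had log2 values of 8.12, 7.44, 8.51 and 7.62 in Sey mutants, against 4.23, 4.50 and 4.12 in Sey controls. Every control array was dim and every mutant array was not, so the fitted log2 change of 3.64 ± 0.39 (adjusted p = 1.52e-06 in limma) has no measured lower end and is given as at least 5.78-fold, the mutant mean over the level of each control array. This p-value is not an independent test, since the gene was kept for testing only through the group where it is high. In Leca4 the values were 3.08, 3.58 and 3.46 in mutants, against 3.60, 3.66, 5.66 and 3.74 in controls, each mutant below each control, as for 7.03% of all genes in that line. All of these arrays were dim but control replicate 3, and the change of -0.79 was not called (interval -1.60 to 0.02; adjusted p = 0.29 in limma). It was -0.29 without that array (adjusted p = 0.672 in limma). In Leca2 the values were 4.19, 4.04, 4.89 and 3.78 in mutants, against 3.53, 3.68 and 4.07 in controls, all of them dim, and no fold is given.

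The single male Sey mutant, replicate 2, had the lowest value of its group for each of the 4 genes (10.16, 8.45, 8.00 and 7.44 for Gad1, Gad2, Slc32a1 and Slc18a2), and each was above the highest of the 3 male Sey controls (8.80, 7.65, 6.83 and 4.50). With a term for sex in the model the log2 changes in Sey were 2.04, 1.69, 1.77 and 3.57 in the same order (adjusted p = 0.00133, 0.00112, 0.000177 and 2.87e-05 in limma).

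The change itself differed between the Sey line and each Leca line. The Sey change exceeded the Leca4 change by 2.50 ± 0.47 for Gad1, 1.96 ± 0.38 for Gad2, 1.95 ± 0.32 for Slc32a1 and 4.43 ± 0.55 for Slc18a2 on the log2 scale (adjusted p = 0.0014, 0.00193, 0.000459 and 2.18e-05 in limma). For Slc18a2, dim in every Sey control and in all Leca arrays but 1, the fitted differences from both Leca lines are not measured sizes. Their p-values are not independent tests either, since the gene was kept for testing only through the Sey mutants. The Leca4 difference was called for 12.8% of all genes and was positive for 6.76%. It exceeded the Leca2 change by 1.86 ± 0.47, 1.72 ± 0.38, 1.92 ± 0.32 and 3.17 ± 0.55 in the same order (adjusted p = 0.0199, 0.0086, 0.001 and 0.00125 in limma), a difference called for 6.69% of all genes, with a positive sign in 3.43%. With a term for sex, the difference between the Sey and Leca2 changes was not called for Gad1 (1.88, adjusted p = 0.106) or Gad2 (1.63, adjusted p = 0.0817). For Gad1 the call was also lost when Sey control replicate 1 was left out (1.77, adjusted p = 0.058), and when Leca2 control replicate 3 was (1.66, adjusted p = 0.0597). None of the 4 genes was called for the difference between the Leca4 and Leca2 changes, which was called for 2.38% of all genes. That difference was -0.64 for Gad1 (interval -1.62 to 0.33), -0.23 for Gad2 (-1.03 to 0.56) and -0.03 for Slc32a1 (-0.71 to 0.64), and none is given for Slc18a2, dim in 13 of these 14 arrays. Strain differs between the Sey line and the Leca lines, and line and strain cannot be told apart in these comparisons.

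The probe sets of a gene did not all move alike. The second probe set of Gad1 rose by 1.32 ± 0.17 in Sey (adjusted p = 1.79e-05 in limma over all kept probe sets) and that of Gad2 by 2.21 ± 0.28 (adjusted p = 2e-05). In Leca4 these second probe sets changed by -0.37 (interval -0.72 to -0.02) and -0.44 (-1.03 to 0.15), each mutant array below each control array, as for 7.03% of all genes. Neither was called (adjusted p = 0.263 and 0.476). In Leca2 they changed by -0.15 and -0.51, also not called (adjusted p = 0.96 and 0.771). A further 3 probe sets are annotated to Slc32a1. Of these, 2 were above the dim level in all 7 arrays of the Sey line, and their log2 changes in Sey were 0.07 and -0.02, which were not called (adjusted p = 0.734 and 0.927). The last was dim in every array. Mean levels of these 3 lay between 4.51 and 6.39 in Sey mutants and between 4.52 and 6.31 in Sey controls. With the mean of its kept probe sets, Slc32a1 rose by 0.62 in place of 1.80 in Sey (adjusted p = 2.4e-05 in limma). Slc18a2 has 1 probe set, and its result rests on that alone.

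**Figure D2:**
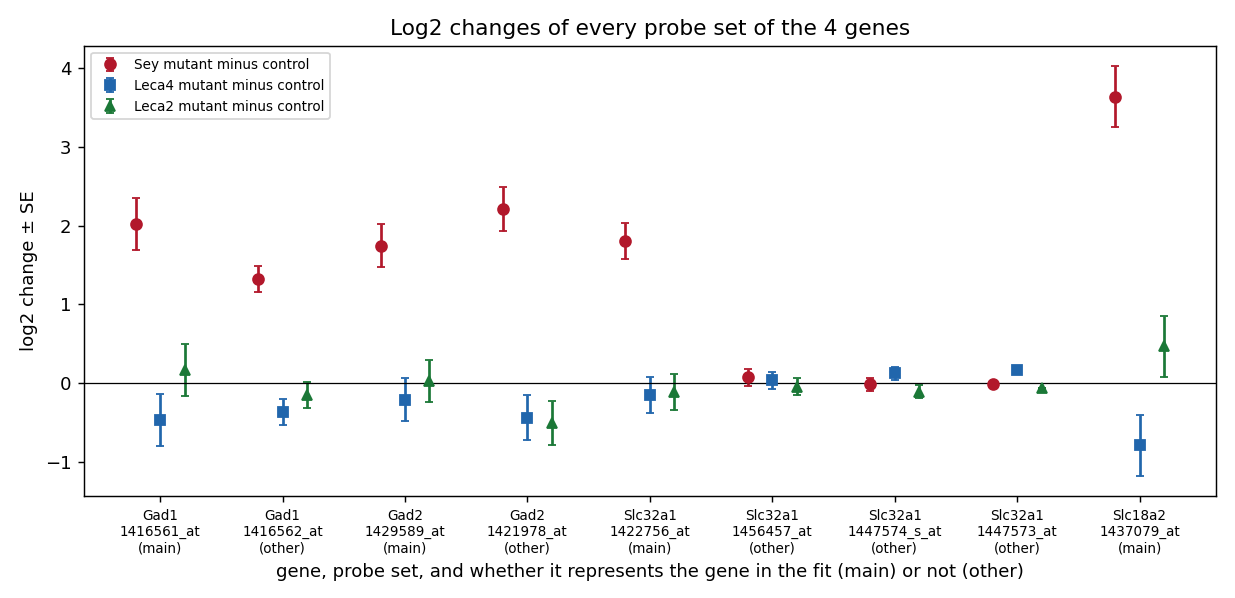
Log2 change ± SE (vertical axis) of each of the 9 probe sets of the 4 genes (horizontal axis) in the Sey, Leca4 and Leca2 lines. Both probe sets of Gad1 and of Gad2 rose in Sey, whereas 1 of 4 probe sets of Slc32a1 did, and the probe set drawn without an error bar was dim in every array and was not fitted.

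Of the genes listed for GABA uptake or breakdown, 1 of 4 for uptake and 3 of 3 for breakdown were tested. Slc6a11 (GAT3), a GABA transporter of glial cells in the adult brain, fell in both Sey and Leca4. Its values were 5.50, 5.28, 5.21 and 5.36 in Sey mutants, against 6.00, 5.88 and 6.43 in Sey controls, with a log2 change of -0.76 ± 0.20 (adjusted p = 0.00808 in limma). In Leca4 they were 5.74, 5.82 and 5.62 in mutants, against 6.35, 6.43, 7.07 and 6.97 in controls, with a change of -0.98 ± 0.20 (adjusted p = 0.00456). Mutant arrays lay below all control arrays in both lines, as for 14.5% of all genes in Sey and 7.03% in Leca4, and 3 of 4 Sey mutant arrays were dim. In Leca2 the change of -0.31 ± 0.20 was not called (adjusted p = 0.89), and none of the 3 differences between lines was called for Slc6a11 (adjusted p = 0.675, 0.414 and 0.25). Slc6a12 and Slc6a13 were dim in every array. Among the breakdown genes Abat, the GABA transaminase, rose in Sey by 0.86 ± 0.14 (8.81, 8.26, 8.77 and 8.52 in mutants, against 7.77, 7.68 and 7.73 in controls; adjusted p = 0.00015). Its Sey change exceeded that in Leca4 by 1.14 (adjusted p = 0.00067) and that in Leca2 by 0.75 (adjusted p = 0.0252). Aldh5a1, the dehydrogenase of the later step, had a change of 0.15 in Sey (adjusted p = 0.18 in limma). Aldh9a1, an aldehyde dehydrogenase gene on the same list that does not carry out that step, had a change of -0.01 (adjusted p = 0.964). None of the 3 listed genes was called in Leca4 or Leca2.

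On the receiving side, 8 of 16 listed GABA-A receptor subunit genes were tested. In Sey 3 rose and 1 fell, against 10.7% and 9.41% of all genes, and in Leca4 and Leca2 none was called. Gabrb1, Gabra4 and Gabra2 rose by 0.94 ± 0.18, 0.81 ± 0.21 and 0.77 ± 0.14 (adjusted p = 0.000945, 0.00856 and 0.00037 in limma). These genes stand on mouse chromosome 5, and Gabra2 rose more in Sey than in Leca4 by 0.87 (adjusted p = 0.00494) and than in Leca2 by 0.91 (adjusted p = 0.00598). Gabrb2 fell by 0.91 in Sey (adjusted p = 0.00692). In Leca2, Gabra4 and Gabrb1 had changes of 0.79 ± 0.21 and 0.68 ± 0.18 with all mutant arrays above all controls, as for 3.26% of genes in that line, and neither was called (adjusted p = 0.141 and 0.153). The GABA-B receptor gene Gabbr1 and 4 genes of receptor clustering and chloride transport (Gphn, Nlgn2, Slc12a2 and Slc12a5) were called in none of the lines. The list's median log2 change in Sey was 0.0008 for the GABA-A subunits and -0.12 for the clustering and chloride genes, against -0.0003 over all genes.

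The rise of Slc18a2 in Sey was not matched across genes that make or recycle monoamines. Of 11 listed synthesis genes 7 were tested, and in Sey 1 rose and 2 fell, against 10.7% and 9.41% of all genes. Th, the rate-limiting enzyme of catecholamine synthesis, rose by 0.44 ± 0.10, with means of 5.97 in mutants and 5.53 in controls, close to the dim level (adjusted p = 0.00361 in limma). Qdpr and Pnmt fell by 0.20 and 0.22 (adjusted p = 0.0235 and 0.0462). Ddc, Tph1, Tph2 and Gch1 had no probe set that passed the filter. Of 3 tested plasma membrane transporters, Slc29a4 fell by 0.28 (adjusted p = 0.0027), and Slc6a2 and Slc6a4, the transporters of noradrenaline and serotonin, had changes of -0.15 and -0.17 (adjusted p = 0.25 and 0.211). The breakdown enzyme gene Maoa fell by 0.28 in Sey (adjusted p = 0.00141), and Maob rose by 0.49 ± 0.11 in Leca4 (adjusted p = 0.0126). No other gene of these 3 groups was called in any line. Of 11 listed transcription factor genes of monoaminergic neurons 4 were tested (Nr4a2, Pitx3, Lmx1b and Gata2), and none was called in any line, with a median change of -0.01 in Sey.

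Among other vesicular transporter genes, Slc17a6 (VGLUT2), which loads glutamate, fell in Sey by 1.18 (9.29 ± 0.19 in mutants and 10.47 ± 0.08 in controls, SD, n = 4 and 3; adjusted p = 1.54e-08 in limma). Slc17a7 and Slc18a1, the second vesicular monoamine transporter, had changes of -0.11 and -0.22 (adjusted p = 0.495 and 0.297), where Slc18a1 was dim in every array of the line, and none of the 3 was called in Leca4 or Leca2. Of the acetylcholine genes Slc5a7 was tested and not called (-0.04 in Sey, adjusted p = 0.849).

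**Figure D3:**
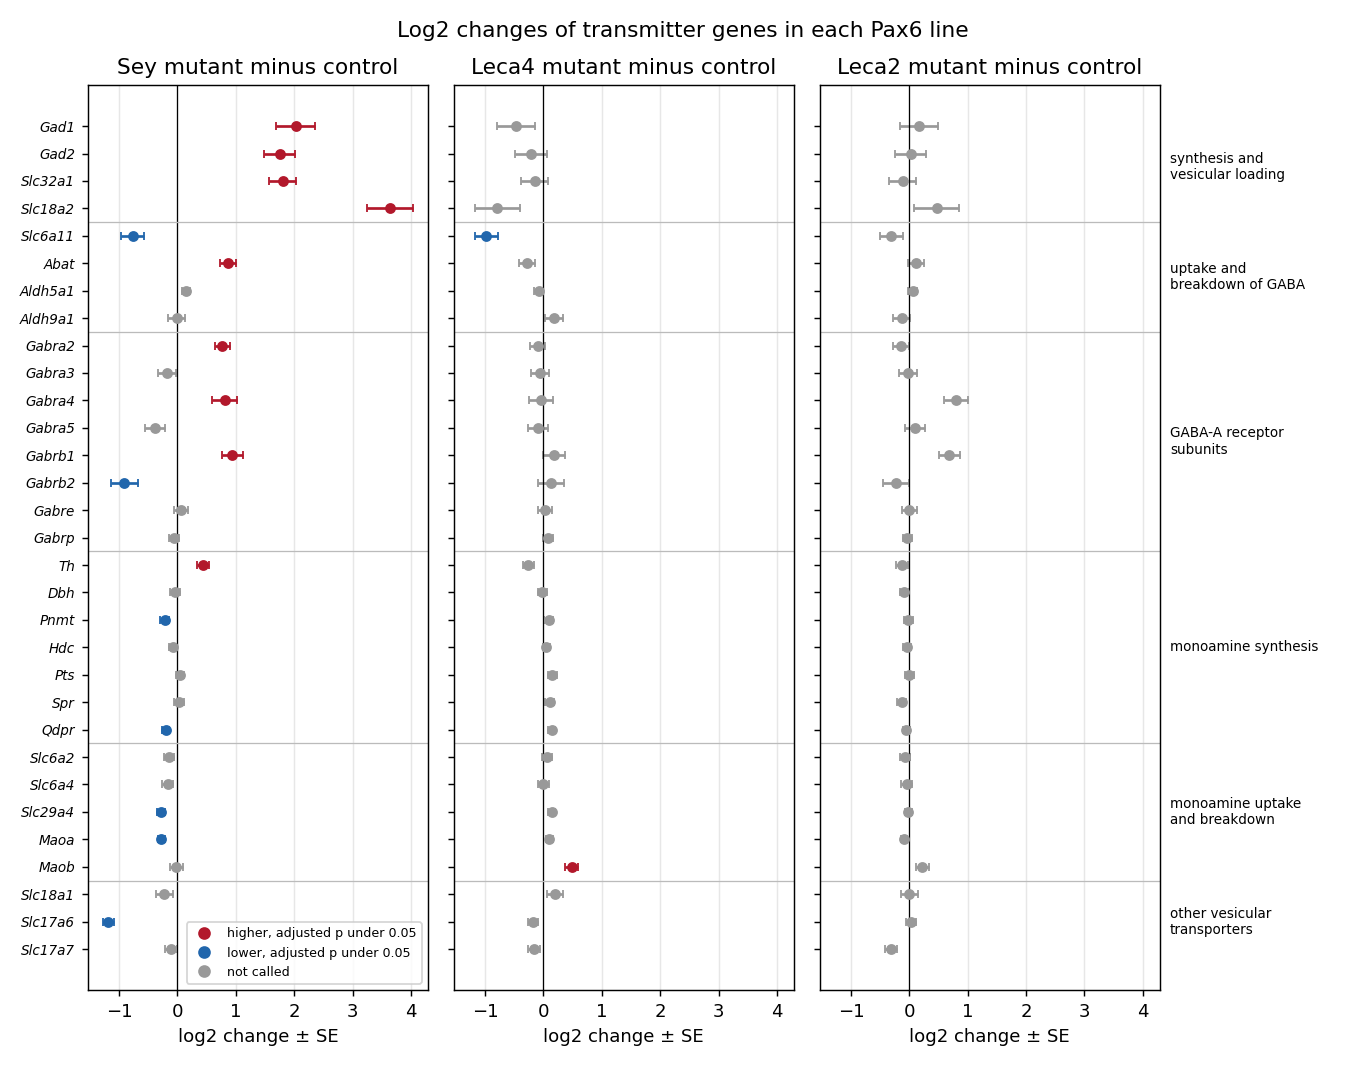
Log2 change ± SE (horizontal axis) of the 4 genes and of tested genes listed for GABA uptake, breakdown and reception, for monoamine synthesis, uptake and breakdown, and for other vesicular transporters, in the Sey, Leca4 and Leca2 lines. Red points are called higher and blue points called lower at an adjusted p under 0.05. Gad1, Gad2 and Slc32a1 stand at 1.75 or above in Sey and between -0.47 and 0.17 in the Leca lines. Slc18a2 stands at 3.64 in Sey, -0.79 in Leca4 and 0.47 in Leca2. These are fitted values and not measured sizes, since it was dim in every Sey control and in all Leca arrays but 1.

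Genes of the cells that carry GABA moved in part with the 4 genes. Of 15 listed transcription factor genes of GABAergic precursors 11 were tested. In Sey 6 rose and none fell, against 10.7% and 9.41% of all genes. The median log2 change of the 11 was 2.88, or 2.70 with Dlx6 and Isl1, dim in every control array, at their lower bounds, against -0.0003 over all genes. The 6 that rose were Dlx1, Dlx2, Dlx5, Dlx6, Gsx2 and Sp8, with changes of 3.88, 3.81, 3.76, 2.96, 3.15 and 2.88 (highest adjusted p = 1.93e-06 in limma), where that of Dlx6 is fitted and not a measured fold. Dlx6 was dim in every array outside the Sey mutants, so it passed the filter only through the group where it is high. None of the 11 was called in Leca4 or Leca2. The summed level of the 11 genes ran from 13.33 to 13.84 on the log2 scale in Sey mutants, against 10.45 to 10.78 in Sey controls. Nkx2-1 and Lhx6, factors of the medial ganglionic eminence and its interneurons that were singled out after their values were seen, had changes of -0.09 (adjusted p = 0.538) and -0.56 (adjusted p = 0.0595). Lhx6 had values of 8.41, 8.23, 8.65 and 8.10 in Sey mutants, against 8.91, 8.82 and 9.01 in Sey controls.

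Of 26 listed genes of interneurons and striatal neurons 20 were tested, and in Sey 5 rose and 4 fell (median change -0.10). Of all genes, 10.7% rose and 9.41% fell in Sey. Foxp2, a factor of striatal and deep-layer neurons, rose by 0.83 ± 0.13, Calb2, which encodes calretinin, by 1.21 ± 0.19 and the serotonin receptor gene Htr3a by 0.62 ± 0.11 (adjusted p = 8.29e-05, 0.000122 and 0.000322 in limma). Ppp1r1b, which encodes DARPP-32, a phosphoprotein of dopamine-receiving striatal neurons, fell by 0.94 (adjusted p = 0.000143). The neuropeptide genes Sst and Npy of interneurons, also singled out after their values were seen, had changes of -0.07 and -0.33 (adjusted p = 0.911 and 0.401). In Leca4, where none of the 4 transmitter genes was called, Foxp1 rose by 0.70 ± 0.10 and Foxp2 and Meis2 fell by 0.60 and 0.30 (adjusted p = 0.000249, 0.00621 and 0.0278). No gene of the list was called in Leca2.

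Of 11 tested cortical glutamatergic markers, 8 fell and 1 rose in Sey (median -0.55), where 9.41% of all genes fell and 10.7% rose. The summed level of these markers ran from 14.41 to 14.64 in Sey mutants, against 15.18 to 15.25 in Sey controls. The 1 that rose was Emx2, by 0.72 ± 0.17 (adjusted p = 0.00438 in limma). Emx1, a marker of dorsal telencephalon singled out after its values were seen, was 1 of the 2 not called and so differs from most of the list. It was at 9.30 ± 0.13 in Sey mutants and 9.39 ± 0.06 in Sey controls (SD, n = 4 and 3, adjusted p = 0.526 in limma). Some neurons of the thalamus pass through a phase of Slc18a2 expression in rodents. Of 8 tested markers of the thalamus and prethalamus, 6 rose and 1 fell in Sey. Their summed level ran from 12.97 to 13.29 in Sey mutants, against 12.61 to 12.66 in Sey controls. The smallest p among them belonged to Gbx2, dim in every Sey control and at a mean of 6.62 in Sey mutants (adjusted p = 1.09e-12), Lhx5 (1.15), Lhx9 (1.73) and Lhx1 (0.82), while Tcf7l2 fell by 0.39 (adjusted p = 0.00419). The part of such cells in the rise of Slc18a2 was not tested. Mast cells and platelets also hold the monoamine transporter. Of their markers 3 of 7 and 5 of 7 were tested, Kit fell in Sey by 0.56 (adjusted p = 0.000512), no other was called in any line, and the defining mast cell genes Cpa3, Cma1, Fcer1a and Ms4a2 had no probe set that passed the filter. No tested marker of endothelium (6 of 6 listed), meninges (4 of 7), choroid plexus (2 of 4) or erythroid cells (3 of 6) was called in any line. Of 5 microglial markers 3 rose in Leca4 (Cx3cr1, Csf1r and C1qa, by 0.33, 0.42 and 0.52), against 3.39% of all genes, and none was called in Sey or Leca2.

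Array by array, the 4 genes moved with each other and with Dlx factors. After the mean of the line's controls had been subtracted from each array, Gad1 and Gad2 correlated with r = 0.956 over the 21 arrays, Gad1 and Slc32a1 with 0.963, Gad2 and Slc32a1 with 0.971, and Slc18a2 with these 3 at 0.932, 0.928 and 0.935. The 4 Sey mutant arrays stand apart and set most of these values. Over the other 17 arrays, a choice made after the data were seen, the first 3 values were 0.793, 0.839 and 0.841, and those of Slc18a2, dim in 16 of these 17 arrays, were 0.649, 0.606 and 0.488. Arrays of a line share their controls and their normalization, so these values describe the arrays and carry no test.

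Of 13850 genes, those most like Gad1 by this correlation were Dlx1 (0.98), Pfn2 (0.969), the antisense transcript Dlx6os1 (0.965), Slc32a1 (0.963) and Dlx2 (0.961). For Gad2 they were Stk32c (0.971), Slc32a1 (0.971), the G protein subunit gene Gng4 (0.963), Pfn2 (0.962) and Dlx1as (0.957). For Slc32a1 they were Dlx1as (0.983), Dlx5 (0.973), Pfn2 (0.972), Gad2 (0.971) and Stk32c (0.968), and for Slc18a2 Dlx6os1 (0.977), Gsx2 (0.974), the homeobox gene Vax1 (0.973), Dlx2 (0.969) and Dlx1 (0.966). Without the Sey mutants the correlation with Dlx1 was 0.947 for Gad1, 0.861 for Gad2, 0.799 for Slc32a1 and 0.77 for Slc18a2 (17 arrays). Slc18a2 was dim in all of these arrays but Leca4 control replicate 3 (5.66), which was also the highest Leca4 control in Dlx1 (10.05). The spread within Leca2 shows the correlation of Gad1 with Dlx1 in single arrays. Leca2 mutant replicates 2 and 3, high in Gad1 (8.87 and 8.81), had Dlx1 at 9.37 and 9.58, and replicates 1 and 4, low in Gad1 (7.75 and 7.28), had Dlx1 at 7.80 and 7.45. Leca2 control replicate 1, the lowest control in Gad1 (7.38), also had the lowest Dlx1 of its group (7.47).

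**Figure D4:**
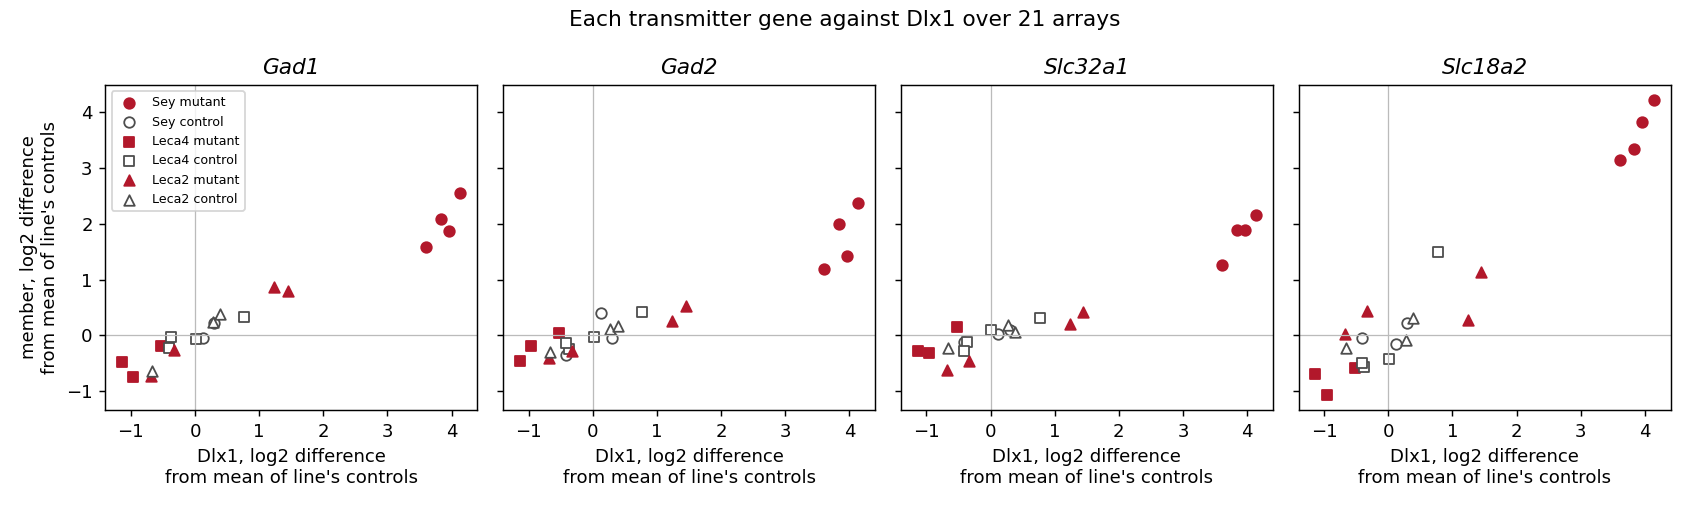
Difference of each array from the mean of its line's controls, on the log2 scale, for Dlx1 (horizontal axis) and for Gad1, Gad2, Slc32a1 and Slc18a2 (vertical axis, 1 panel each), over 21 arrays, with mutants filled and controls open. The 4 Sey mutant arrays stand at the upper right, apart from the other 17, among which the arrays higher in Dlx1 tend to be higher in Gad1 (r = 0.947).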

How the data were processed

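Per the labels' protocols, RNA of rostral cortex was isolated on RNeasy Micro columns, and MessageAmp Premier gave the amplified, biotin-labelled RNA. The authors deposited log2 values that RMA had computed for each probe set, per the submitters' processing notes, and its settings are not stated there. Value distributions match within a line and differ between lines, so each mutant was compared with its own littermates. The labels call the arrays biological replicates, and their number limits the precision.

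The 45101 probe sets comprised 34945 for a single gene, 932 for several, 9160 for no gene and 64 controls. Symbols were updated through gene IDs to RefSeq (GRCm38.p6). A probe set passed when it exceeded its array's 40th percentile on at least 3 arrays (29474, of which 25140 named 1 gene), and the brightest passing probe set, by its mean, stood for a gene. All 4 genes, and 8 of their 9 probe sets, passed. Slc18a2 passed through Sey mutants, where it is high, and so did Dlx6.

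The test was limma 3.58.1 in R 4.3.3 (lmFit and eBayes) on 6 group means over 21 arrays, with 15 residual degrees of freedom, two-sided, with Benjamini-Hochberg adjustment over 13850 genes per contrast. It was tested on simulated data. Errors after log2 changes are SEs. A fold against a group dim in every array sets each dim array at its filter level, and is given as a lower bound. Named were the 4 genes, the GABA uptake genes, up to 4 called genes per list and line, the 5 genes most like each of the 4, and Dlx1, Dlx2, Dlx5, Dlx6 and Pax6. Other names are said to have been chosen after their values were seen, or belong to groups small enough to name whole. The genes and lists were chosen with earlier results of these data known, and lists were written from general knowledge. Alternatives were a fit of only the lines compared, a replicate block, other filters and probe set rules, other variance settings, array weights, other scalings, a term for sex and leaving out each array.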

Additional observations from a re-analysis of the deposited data

Results flagged for a closer look

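In the Leca4 controls 1 of 4 arrays, replicate 3, stood apart for Slc18a2, at 5.66 on the log2 scale, while the other 3 lay between 3.60 and 3.74. Its gap to the next array was 0.931 of the group's range, above Dixon's 95% limit for 4 values (12 such groups were examined, and chance marks about 1 in 20). That array was just above its dim level of 5.59, and the other 3 were dim, so the size of the gap was not measured. The same array was the highest of the Leca4 controls for Gad1 (9.31), Gad2 (8.09), Slc32a1 (7.88), Dlx1 (10.05), Dlx2 (9.91), Gsx2 (7.12) and Slc6a11 (7.07). Without it the Leca4 change was -0.29 for Slc18a2, -0.36 for Gad1, -0.07 for Gad2 and -0.05 for Slc32a1, and none was called (lowest adjusted p = 0.672 in limma). That of Slc18a2 is a fitted value and not a measured size, since all remaining Leca4 arrays were dim.

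The change in Sey differed from that in Leca4 by 2.50 for Gad1, 1.96 for Gad2, 1.95 for Slc32a1 and 4.43 for Slc18a2, and from that in Leca2 by 1.86, 1.72, 1.92 and 3.17, by the contrasts of changes in limma. Those of Slc18a2 are fitted values and not measured sizes, since it was dim in every Sey control and in all Leca arrays but 1. In the 4 Sey mutants all 4 genes were above all controls of the line, as were 16.5% of all genes. The Sey line is of another strain than the Leca lines.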

How the results depend on the processing

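The rises in Sey were called under all 11 alternatives and with each of 7 arrays left out, with log2 changes from 1.67 to 2.10 for Gad1, 1.67 to 1.98 for Gad2, 0.62 to 1.86 for Slc32a1 and 3.57 to 3.76 for Slc18a2 (highest adjusted p = 0.00356 in limma). With arrays left out they ran from 1.85 to 2.17, 1.54 to 1.95, 1.68 to 1.98 and 3.44 to 3.80. No gene of the 4 was called in Leca4 or Leca2 under any of these settings. The differences between the Sey and Leca4 changes were called under all of them, and of those between Sey and Leca2 the exceptions were Gad1 (1.88) and Gad2 (1.63) with a term for sex, and Gad1 with arrays left out (1.56 to 2.17). The cause was not tested.

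Some changes that were not called turned sign. Slc32a1 in Leca2 was 0.054 with the replicate block and ran from -0.29 to 0.054 with arrays left out. With the mean of the probe sets, Slc32a1 was 0.0041 in Leca4 and 0.0944 for the Leca4 minus Leca2 difference, which ran from -0.20 to 0.14 with arrays left out, and Gad2 was -0.24 in Leca2. With array weights Gad2 was -0.017 in Leca2. With arrays left out, Gad1 in Leca2 ran from -0.15 to 0.47 and Gad2 from -0.15 to 0.17.

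The count of genes called in Leca4, 779, was 400 with only that line in the fit and 450 with the replicate block, and ran from 512 to 749 with arrays left out. That in Leca2, 66, was 27, 28 and, with array weights, 121, and ran from 40 to 61. That in Sey, 2791, ran from 1936 to 3699 over the alternatives. Replicate numbers are shared between mutants and controls, but deviations of same-numbered arrays correlated between -0.44 and 0.34 and 3, 1 and 3 of 6 arrays correlated best with their own number in Sey, Leca4 and Leca2, so the numbers were not taken as pairs. The replicate block changed no call of the 4 genes.

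Signal limits Slc18a2, which was dim in 16 of the 17 arrays other than Sey mutants, so that a change in the Leca lines could not be measured there.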

Other observations

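Over the 17 arrays other than Sey mutants, a choice made after the data were seen, the genes most like Gad1, Gad2 and Slc32a1 were partly different ones. Those of Gad1 were Dlx1 (0.947), Dlx5 (0.931), Rhov (0.917), Snx32 (0.907) and Tub (0.905). Those of Gad2 were Napb (0.877), Fnbp1 (0.865), Dlx2 (0.863), Dlx1 (0.861) and Dlx5 (0.855). Slc32a1 was most like Spock2 (0.964), Caly (0.935), Celf6 (0.933), Prkar1b (0.928) and Gap43 (0.924), the last a growth cone protein gene of neurons, and no Dlx gene was among its 5. None are given for Slc18a2, which was dim in 16 of these arrays. These are descriptions of 17 arrays, chosen as the highest of 13850 genes, and carry no test.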
